A study of Mus musculus with 4 samples.

Results

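Radial glia of the ventricular zone were examined in single-cell RNA sequencing libraries of the medial ganglionic eminence (MGE) of mouse embryos at e14.5. The MGE is the ventral forebrain germinal zone that produces interneurons and projection neurons. The St18(-/-) and wildtype (WT) embryos were a C57/BL6 ICR mix from crosses of St18 heterozygous parents. MGE tissue was pooled by genotype and dissociated. Each genotype gave 2 libraries, and those of St18(-/-) embryos are referred to as null. St18 is a zinc finger transcription factor of the Myt family. Per the study's methods, the null allele was made from a line with loxP sites around exons 9 and 10, recombined in the germline by E2a-Cre, so that every cell of a null embryo carries it. How many embryos went into a pool, and of which sex, was not given in the sources used here. No sample had a further treatment.

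Cells were chosen by measured genes. A barcode was eligible with at least 3000 unique molecular identifiers (UMIs, each standing for 1 captured RNA molecule) and at most 10% mitochondrial UMIs. An eligible barcode was taken as a radial glial cell with at least 4 UMIs of Hes1 and Hes5 together, at least 1 of Slc1a3 and Fabp7 together, and at most 2 of Stmn2 and Gap43 together. This chose 1604 of 19032 eligible barcodes. Null replicates 1 and 2 held 601 and 323 radial glia, and WT replicates 1 and 2 held 405 and 275. Lists of 4 values keep this order throughout. Their median depth was 10679, 14434, 9862 and 9228 UMIs, and their summed counts were 7126289, 5369835, 4361214 and 2741639 UMIs. Levels are given as CPM, which is a gene's summed UMIs scaled to the same total in every library. Since the 6 genes of the rule chose the cells, their levels are a description, and so is every contrast of these cells with other cells.

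Radial glia are the stem cells of the embryonic brain. Their cell bodies line the ventricle and a long fibre reaches to the pial surface. Notch signalling holds them back from differentiation: a ligand such as Dll1 or Jag1 on a neighbouring cell activates a Notch receptor, whose cleaved domain joins the DNA-binding protein Rbpj and switches on the repressors Hes1 and Hes5, which hold down proneural genes. Cells that lose the signal become basal progenitors and then neurons.

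The promoter of Hes5 is shown because Hes5 was the gene that chose nearly all of the cells: only 3, 1, 5 and 2 of the radial glia in the 4 libraries had no Hes5 UMI, whereas 342, 154, 209 and 172 had no Hes1 UMI. Lfng, which encodes a glycosyltransferase that modifies Notch receptors, is shown beside it because its level followed that of Hes5 across classes of cells without being part of the rule. The windows hold the 250 bases before the start of each gene in RefSeq (GRCm38.p6, plus strand, chr4:154960673-154960922 for Hes5 and chr5:140607091-140607340 for Lfng). Capitals mark the core letters of the Rbpj motif, GTGGGAA, or TTCCCAC on the other strand.
Hes5: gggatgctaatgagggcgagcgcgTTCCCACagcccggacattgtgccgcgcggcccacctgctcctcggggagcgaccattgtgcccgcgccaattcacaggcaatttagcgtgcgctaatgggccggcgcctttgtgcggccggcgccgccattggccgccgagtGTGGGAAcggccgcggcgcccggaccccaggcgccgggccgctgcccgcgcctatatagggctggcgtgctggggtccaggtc
Lfng: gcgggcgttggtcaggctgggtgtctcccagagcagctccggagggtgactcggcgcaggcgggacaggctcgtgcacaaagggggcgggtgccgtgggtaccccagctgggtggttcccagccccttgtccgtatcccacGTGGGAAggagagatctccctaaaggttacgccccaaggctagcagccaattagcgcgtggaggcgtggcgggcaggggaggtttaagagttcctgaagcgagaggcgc

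The Hes5 window holds the motif 2 times, once on each strand, and the Lfng window holds it 1 time. Of 32851 such windows of all genes in the table, 5.42% hold the motif and 0.161% hold it 2 or more times. Of the 33 rule, marker and Notch pathway genes searched, 28 had a window and 4 of them held the motif: Hes5, Lfng, Hey2 and Psen2. The window of Nrarp, whose level was also highest in radial glia among the classes compared below, held 0 matches. A match describes the letters only.

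Sparc and Ednrb are the markers of the class that the rule did not use. They were chosen with earlier results of these data known, so their levels are no independent check of the label. Ednrb encodes an endothelin receptor and Sparc a secreted matrix protein. Ednrb was at 211, 223, 164 and 176 CPM in radial glia and at 30.8, 26.4, 21.5 and 20.7 CPM in the other eligible barcodes. Sparc was at 345, 263, 239 and 345 CPM against 57.9, 31.4, 36.3 and 36.7 CPM. In WT replicate 2, 34.8% of its UMIs came from 3 radial glia, and without the cells with non-neural markers described below Sparc was at 346, 224, 220 and 229 CPM. Every library therefore had both genes higher in the chosen cells. Pallial markers, which would mark cells of the neighbouring cortex, summed to between 0.365 and 5.96 CPM in radial glia over 6 genes. Emx2, a pallial gene not among these 6, had a mean of 15.4 CPM over the libraries. Genes listed for the neighbouring lateral ganglionic eminence were also present. Meis2 was at 669, 678, 602 and 455 CPM and Gsx2 at 29.2 to 35.4 CPM in radial glia. Whether some of the chosen cells came from outside the MGE was not tested.

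Of the genes outside the rule, Rgcc, a regulator of cell cycle progression, was 9.93-fold higher in radial glia than in the other eligible barcodes, by the ratio of mean CPM after 1 was added to each. Mfge8, a secreted glycoprotein, was 8.69-fold higher, Vcam1, an adhesion molecule, 8.45-fold, and the homeobox gene Otx2 8.0-fold. Ttyh1, Lxn, Psat1, Plce1 and Pdpn were 7.03-, 6.68-, 6.57-, 6.44- and 6.41-fold higher. Psat1 is an enzyme of serine synthesis and Pdpn a membrane mucin. Together with Sparc, Ednrb and 4 genes of the rule, these made up the 15 genes with the largest ratios. The 15 with the largest ratios the other way included genes of neurons: Sst, which encodes the neuropeptide somatostatin, was 26.5-fold lower in radial glia, the transcription factor Maf 18.7-fold and the GABA-synthesizing enzyme Gad2 15.4-fold. Neb, Syt1, Stmn2, Myt1l, Lhx8, Runx1t1, Nxph1, Plxna4, Gm14204, Dlx6os1, Gad1 and Actl6b followed, at 13.8- to 18.4-fold, of which Stmn2 was part of the rule.

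Radial glia were compared with dividing cells low in the Hes genes. These were 2857 eligible barcodes with at most 1 UMI of Hes1 and Hes5, at least 2 of Mki67 and Top2a, and at most 2 of Stmn2 and Gap43, here called dividing Hes-low cells. Neurons were 7284 eligible barcodes with at most 1 UMI of Hes1 and Hes5 and at least 5 of Stmn2 and Gap43. Hes5 was at 1054, 913, 1205 and 1164 CPM in radial glia and at 28.8, 19.4, 26.3 and 25.8 CPM in dividing Hes-low cells. Fabp7, a lipid-binding protein of radial glia, was at 1946, 1787, 2031 and 2159 CPM against 174, 191, 181 and 257 CPM. Hes1 was at 78.9, 85.1, 93.6 and 76.6 CPM and Slc1a3, a glutamate transporter, at 119, 145, 83.5 and 111 CPM in radial glia. The limits on Hes1 and Hes5 UMIs set these classes apart, and Fabp7 and Slc1a3 were also genes of the rule. These levels therefore describe the choice of cells.

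**Figure D1:**
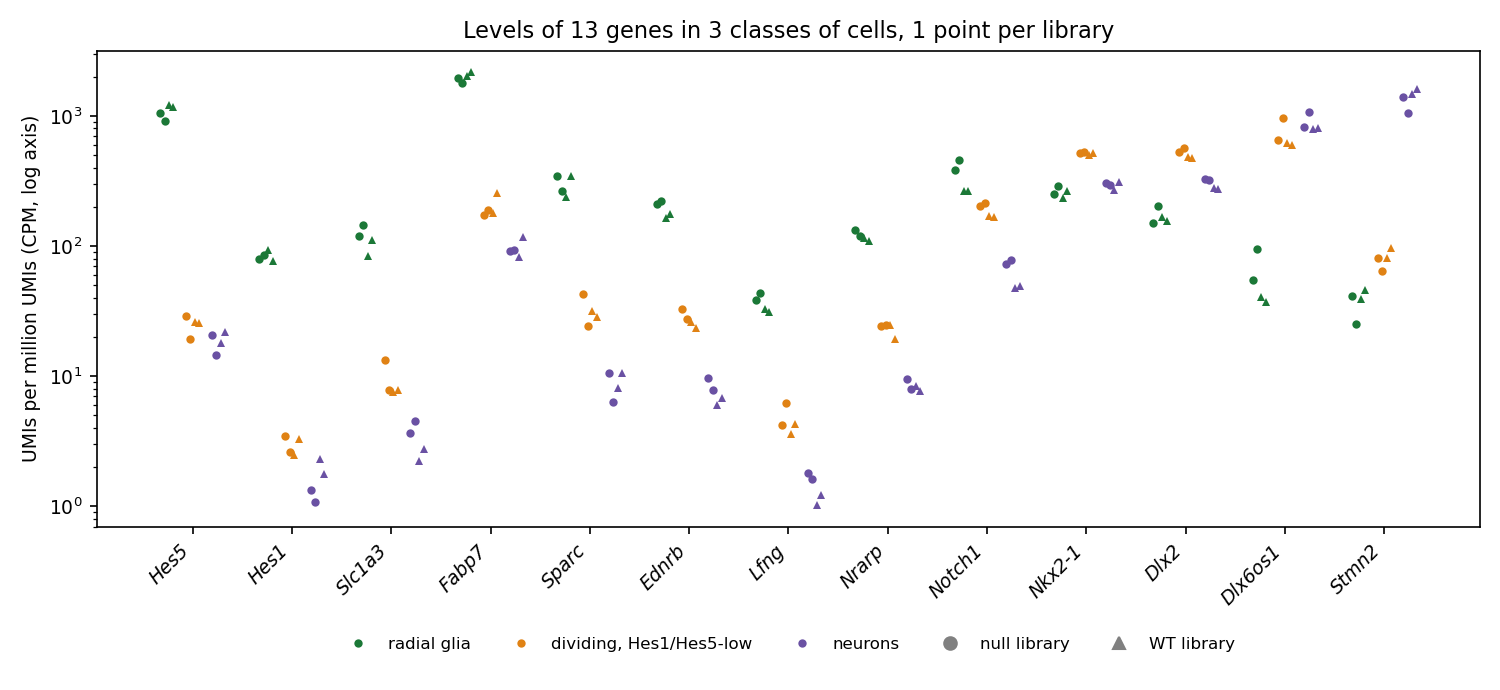
Levels of 13 genes (CPM, log axis) in radial glia, dividing Hes-low cells and neurons, with 1 point per library, circles for null and triangles for WT. The 8 genes from Hes5 to Nrarp lie highest in radial glia in all 4 libraries, while Dlx2 and Dlx6os1 lie higher in dividing Hes-low cells, where Dlx6os1 has 593 to 958 CPM against 37.2 to 95.7 CPM in radial glia.

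The genes with the largest ratios of dividing Hes-low cells over radial glia included many of the interneuron program. Dlx6os1, a long non-coding RNA beside the Dlx5 and Dlx6 genes, was 12.1-fold higher in dividing Hes-low cells than in radial glia. St18 itself was 11.2-fold higher, Dlx5 9.26-fold and Lhx6, a transcription factor of MGE-derived interneurons, 9.25-fold. Lhx8, Nrxn3, Gad1, Maf, Arl4d, Gad2, Gm14204, Prox1, Nav2 and Dcx were also among the 15 largest, at 6.53- to 9.07-fold. On the other side, Igfbp5, a binding protein of insulin-like growth factors, was 11.4-fold higher in radial glia, and Ttyh1 10.1-fold.

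Notch pathway genes are given by role. Among the receptors, Notch1 was at 385, 455, 266 and 265 CPM in radial glia and at 203, 214, 172 and 166 CPM in dividing Hes-low cells. Notch2 and Notch3 were at 16.4 to 35.0 CPM in radial glia and at 3.93 to 7.88 CPM in dividing Hes-low cells. Of the ligands, Jag1 was at 30.5, 38.2, 25.9 and 25.9 CPM in radial glia and at 14.9, 9.78, 10.4 and 10.1 CPM in dividing Hes-low cells. Dll1 was at 25.7, 42.6, 24.5 and 27.7 CPM there and higher, at 55.3, 65.7, 55.0 and 48.3 CPM, in dividing Hes-low cells. In each of the 4 libraries the receptor Notch1 was higher in radial glia and the ligand Dll1 higher in dividing Hes-low cells. Of the targets that the rule did not use, Nrarp, a feedback inhibitor of the pathway, was at 133, 120, 116 and 109 CPM in radial glia and at 24.4, 24.7, 24.6 and 19.2 CPM in dividing Hes-low cells. Lfng, whose promoter window is printed above, was at 38.7, 43.9, 32.6 and 31.0 CPM in radial glia and at 4.2, 6.27, 3.57 and 4.30 CPM in dividing Hes-low cells.

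Radial glia with few and with many Hes1 and Hes5 UMIs are set side by side here as a description, since the rule used these UMIs. Just inside the limit, 58, 27, 34 and 29 cells had exactly 4 UMIs of Hes1 and Hes5, and just outside it, 79, 46, 52 and 41 barcodes that met the rest of the rule had 3. The median radial glial cell had 11, 13, 11 and 10. Dlx2, a homeobox gene of the interneuron program, went from 243, 415, 210 and 228 CPM at 4 UMIs to 130, 168, 145 and 111 CPM above 10. Fabp7, also a gene of the rule, went the other way, from 846, 736, 899 and 1266 CPM to 2485, 2167, 2566 and 2946 CPM. Mki67 differed less between these cells, at 910, 929, 404 and 568 CPM with 4 UMIs and at 778, 887, 527 and 390 CPM above 10. In the barcodes with 3 UMIs, Dlx2 was at 291, 459, 241 and 288 CPM. Fabp7 was there at 1344, 519, 1343 and 947 CPM, which in null replicate 1 and WT replicate 1 was above its level at 4. Cells with more UMIs in all pass a limit on Hes UMIs more easily: the median depth was 8780.5, 12924, 8018 and 8882 UMIs at 4 and 11232, 15191.5, 10833 and 9370 above 10, and its part in these differences was not tested.

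Radial glia held more RNA of cell cycle genes than neurons did. To set cells of unequal depth side by side, each cell was thinned at random to 3000 UMIs. The 20 genes of the S phase list then summed to a median of 10, 10, 11 and 10 UMIs per radial glial cell, close to the 10, 8, 10 and 11 of dividing Hes-low cells and above the 2 of neurons in every library. The 20 genes of the G2/M list summed to a median of 20, 16, 18 and 15 UMIs, below the 28, 20, 29 and 30 of dividing Hes-low cells, which had been chosen by 2 of those genes. The spread between radial glia was wide, from 2 or 3 UMIs at the 10th percentile to between 52 and 55 at the 90th. In neurons the G2/M list had a median of 2 UMIs in every library, with 37, 29.4, 26 and 26 at the 90th percentile. The rule for neurons set no limit on division genes. The 12 genes of the basal progenitor list summed to a median of 2 or 3 UMIs in radial glia and of 8 to 10 in dividing Hes-low cells. Background RNA also carries these genes, and no cell was assigned to a phase.

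Nkx2-1, the transcription factor that specifies the MGE, was found after thinning in 50.2%, 53.9%, 44.4% and 50.5% of radial glia. The share was also taken in 63 to 84 barcodes per library with markers of microglia, blood, vessels or oligodendrocyte precursors. There it was 15.5%, 16.2%, 6.35% and 25.3%, at median depths of 9883 to 12161 UMIs. A Fabp7 UMI was found in 23.8%, 26.5%, 17.5% and 25.3% of the same barcodes. Whether these UMIs came from background RNA, mixed droplets or the cells themselves was not tested. In dividing Hes-low cells the Nkx2-1 share was 68.8%, 66.8%, 68.0% and 68.8%. The radial glia with an Nkx2-1 UMI had about the same depth as those without, with medians of 10528, 15086, 9547 and 9005 against 11018, 14222, 10132 and 9636.5 UMIs. Before thinning, Nkx2-1 was at 250, 290, 233 and 265 CPM in radial glia.

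Radial glia with and without an Nkx2-1 UMI differed in genes of differentiation, each given here as a description over the 4 libraries. Dlx1 was 2.62-fold higher in cells with the UMI, at 328, 408, 298 and 260 CPM against 148, 157, 106 and 80.8 CPM. Sp9, a zinc finger factor of ventral progenitors, was 2.56-fold higher, Dlx6os1 2.27-fold and Dlx2 2.21-fold. Npy, Nrxn3, Sfta3-ps, Bcl11b, Abracl and Elavl4 were 1.74- to 2.03-fold higher. Only genes with the same direction in all 4 libraries were ranked here, so that shared direction is no result. Genes higher without the UMI began with Igfbp7, Rgs5, Cldn5 and Col4a1, which mark vessels. Once the 4, 5, 3 and 5 radial glia with non-neural markers described below were set aside, the 10 genes were Ptx3 (2.88-fold), Fzd8 (1.71-fold), Sfrp1 (1.70-fold), Igfbp5 (1.67-fold), Anxa2 (1.58-fold), Gnao1, Nkx2-3, Pkdcc, Elovl6 and Fgfr3. Fzd8 is a Wnt receptor and Sfrp1 a secreted Wnt antagonist.

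The checks of the libraries come before the comparison of genotypes. St18 was low in radial glia, with 20, 49, 12 and 8 UMIs or 2.81, 9.13, 2.75 and 2.92 CPM, and the null libraries overlapped WT. A count over the whole gene does not show whether exons 9 and 10 were present, so it does not check the labels. In null replicate 2, where St18 was highest, 42.9% of its UMIs came from 3 cells. No radial glial barcode was shared between libraries, and any pair shared 4 to 11 eligible barcodes, where the size of the barcode whitelist alone gives 2.29 to 4.4. Endothelial markers were at 0 in 88.4% to 91.0% of radial glia and erythroid markers in 48.9% to 57.1%. Only 4, 5, 3 and 5 cells had at least 3 markers of a non-neural list and at least 10 of its UMIs. These few cells carried much RNA. Over 6 genes, erythroid markers summed to 828, 47.7, 64.4 and 10863 CPM with them and to 58.9, 47.5, 65.2 and 57.4 CPM without, and endothelial markers summed to 200 CPM with and 12.4 CPM without them in WT replicate 2. Oligodendrocyte precursor, pericyte and microglial markers reached at most 34.8, 118 and 70.4 CPM in any library, and choroid plexus markers at most 0.688 CPM.

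The pools also differed in sex. At least 3 Xist UMIs with no Y-linked UMI were found in 216 and 200 radial glia of the null libraries and in 0 of 405 and 0 of 275 in WT. At most 1 Xist UMI with at least 1 UMI of Ddx3y, Eif2s3y, Uty or Kdm5d was found in 252, 89, 303 and 193. The gene comparison and the shares were therefore also computed in male cells alone, while the list counts and the difference between classes were not.

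The first question was whether radial glia were as frequent in null as in WT MGE. They made up 9.06% and 8.33% of eligible barcodes in null and 8.98% and 6.86% in WT. The exact binomial 95% intervals, which cover counting error only, were 8.38% to 9.78%, 7.48% to 9.24%, 8.16% to 9.85% and 6.09% to 7.68%. WT replicate 2 was low and the other 3 libraries lay close together. The means were 8.70% ± 0.519 (SD, n = 2) in null and 7.92% ± 1.5 (SD, n = 2) in WT, a difference that an exact permutation test over the 4 libraries did not separate from the spread (two-sided p = 0.667, where 0.333 is the smallest that 2 against 2 allows). The difference of 0.780 percentage points turned to -0.280 without WT replicate 2. In male cells alone it was 1.18. It was -0.495 when all barcodes were thinned to 3000 UMIs before the rule was applied.

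The share of radial glia with Mki67 RNA was compared in the same way. After thinning, an Mki67 UMI was found in 63.7% and 63.2% of null radial glia and in 50.1% and 50.2% of WT radial glia. Mki67 is a chromosome coat protein of cycling cells. The genotypes did not overlap, and the means of 63.4% ± 0.403 and 50.2% ± 0.0413 (SD, n = 2 each) differed by 13.3 percentage points with the smallest p that the exact permutation test allows (0.333, two-sided). In male cells alone the difference was 12 points. The share among neurons, whose rule set no limit on division genes, was 24.0%, 21.3%, 16.9% and 15.8%, also without overlap. In the 63 to 84 barcodes per library with non-neural markers it was 23.8%, 16.2%, 11.1% and 24.0%, with overlap. Such cells may divide and hold Mki67 RNA of their own, so this share does not measure background RNA alone. Background droplets, those with under 100 UMIs, held Mki67 at 314, 279, 209 and 173 CPM. In summed counts, the log2 fold change of Mki67 (null over WT) was 0.61 in radial glia, 0.25 in dividing Hes-low cells and 0.59 in neurons. In background droplets, scaled by library totals, it was 0.64. Over all genes the direction of change also went with transcript length, as given below. The parts of background RNA and of transcript length in the difference between radial glia were not tested. Dividing Hes-low cells were chosen in part by Mki67, and their share of 76.1%, 66.7%, 72.3% and 72.6% is no contrast to that of radial glia. The medians of the S phase and G2/M lists per radial glial cell, given above, overlapped between genotypes. The share with an Nkx2-1 UMI was 52.1% ± 2.56 for null and 47.5% ± 4.31 for WT (SD, n = 2 per genotype) and was not separated (exact permutation test, two-sided p = 0.667), with libraries of the genotypes overlapping. In male cells alone its difference was 4.29 points.

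**Figure D2:**
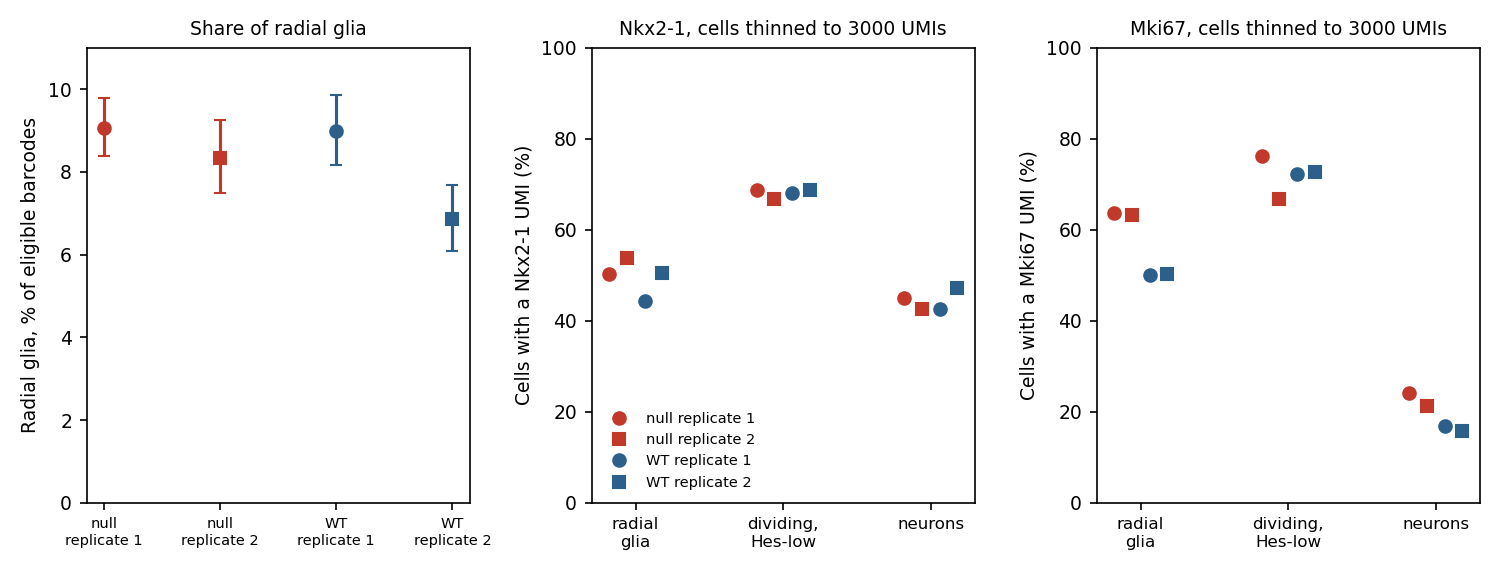
Left, radial glia as a percentage of eligible barcodes in each library, with exact binomial 95% intervals. Middle and right, percentage of cells with an Nkx2-1 or Mki67 UMI after thinning to 3000 UMIs, with 1 point per library and class. For Mki67 the null radial glia lie at 63.2% and 63.7% and the WT radial glia at 50.1% and 50.2%, while for Nkx2-1 the genotypes overlap.

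Gene levels in radial glia were then compared between null and WT with counts summed per library, by edgeR's quasi-likelihood test. Of 11857 genes tested, 89 (0.751%) passed a Benjamini-Hochberg adjusted p of 0.05, with 8 higher in null (0.0675%) and 81 lower (0.683%). Before adjustment, 1997 genes (16.8%) had a p under 0.05, 855 higher (7.21%) and 1142 lower genes (9.63%). Without the radial glia that had non-neural markers the counts were 32 higher and 192 lower, and 86 of the 89 calls were among them. The count of higher genes moved with the scaling, and that of lower genes little. With library totals alone in place of the trimmed mean of M-values, 374 genes were called higher and 77 lower. The median log2 fold change of all genes was then 0.20 in place of 0.0032. All fold changes below are relative to the trimmed mean of M-values.

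The genes called higher in null were Xist, the predicted gene Gm35082 and 6 protein-coding genes. Prdm16, a zinc finger factor of embryonic neural stem cells (chromosome 4, 154316125 to 154636873), was at 65.3 and 66.5 CPM in the null libraries and 32.8 and 34.3 CPM in the WT ones. Its log2 fold change was 0.78 ± 0.15 (SE; edgeR adjusted p = 0.0406). Pcnt, a scaffold protein of the centrosome (chromosome 10, 76351263 to 76442786), was at 61.5 and 64.4 CPM against 33.2 and 28.8 CPM, a log2 fold change of 0.81 ± 0.15 (edgeR adjusted p = 0.0406). In both genes the null libraries lay close together and well above WT.

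Syne2, which links the nucleus to the cytoskeleton (chromosome 12, 75818134 to 76110926), was at 240 and 267 CPM in the null libraries and 141 and 132 CPM in the WT ones. Numa1, a spindle pole protein (chromosome 7, 101934111 to 102014964), was at 122 and 128 CPM against 71.3 and 64.2 CPM. Golga4, a Golgi coiled-coil protein (chromosome 9, 118506267 to 118582519), was at 101 and 111 CPM against 61.2 and 52.9 CPM. Ildr2, an immunoglobulin-like membrane receptor (chromosome 1, 166254139 to 166316823), was at 116 and 122 CPM against 67.0 and 59.5 CPM. Their log2 fold changes were 0.68 to 0.71, with edgeR adjusted p of 0.0406 to 0.0423. The UMIs of these 6 genes were spread over many cells: 240, 162, 106 and 70 radial glia had a Prdm16 UMI, and the 3 richest cells held 4.52% to 12.8% of its UMIs. Among the 6 genes the largest such share was 17.1%, for Pcnt in null replicate 2. A Pcnt UMI was found in 215, 151, 97 and 53 radial glia.

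None of these 6 genes passed the threshold in male cells alone, where their log2 fold changes were 0.55 to 0.81 and the edgeR adjusted p was 0.0666 to 0.169. They also lost the call when WT replicate 2 was left out, with adjusted p of 0.200 to 0.449, and all kept their direction. Without WT replicate 1 all but Pcnt lost it, with adjusted p of 0.0965 to 0.208. With Hes1 and Hes5 at 6 UMIs or more all 6 lost it (adjusted p of 0.0542 to 0.102), and with at least 5000 UMIs all but Pcnt (0.0513 to 0.0542). With barcodes thinned before the rule all but Ildr2 lost it (0.140 to 0.634), and Prdm16 had a log2 fold change of 0.40. With Stmn2 and Gap43 at 0, Prdm16 (log2 fold change 0.50, edgeR adjusted p = 0.245), Ildr2 (0.0908) and Syne2 (0.0653) lost it. DESeq2 called Syne2, Numa1, Golga4 and Ildr2, and gave Prdm16 and Pcnt no adjusted p. The log2 fold changes of the 6 genes in dividing Hes-low cells were 0.80 for Prdm16, 0.37 for Pcnt, 0.41 for Syne2, 0.43 for Numa1, 0.58 for Golga4 and 0.50 for Ildr2. In the test of the difference between the classes none of the 6 was called. In neurons they had 0.21 (Prdm16) to 0.76 (Ildr2). In background droplets, scaled by library totals, Prdm16 had 0.37 and the others 0.58 to 0.62. The part of background RNA in these differences was not tested.

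**Figure D3:**
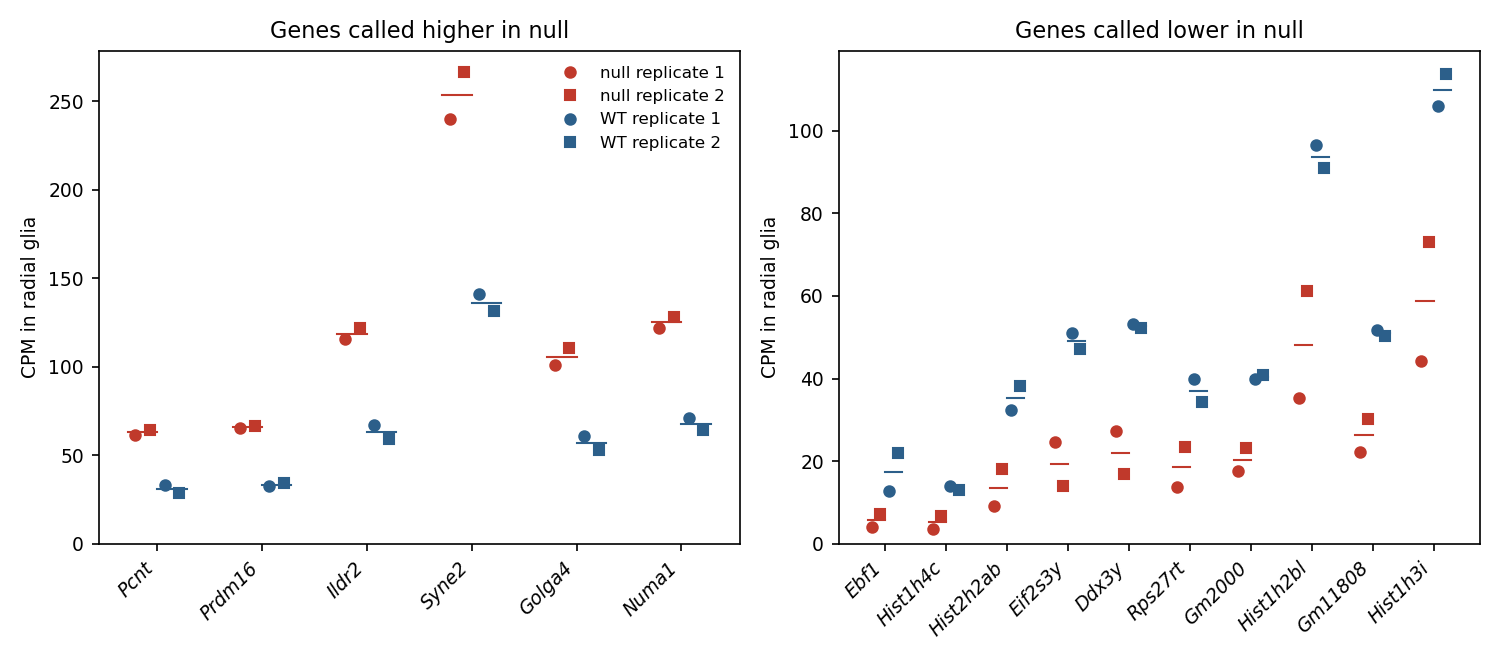
CPM in radial glia of each library for genes called higher in null (left, without Xist and Gm35082) and the 10 named genes called lower in null (right), with short lines for the mean of each genotype. Genes were shown only if both null libraries lay on 1 side of both WT libraries, for example Prdm16 at 65.3 and 66.5 CPM against 32.8 and 34.3 CPM. Of all genes tested, 44.5% met this condition with null higher and 11.3% with null lower.

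Families were formed by gene symbol after the calls were seen. The genes called lower in null held 16 of 121 tested genes of the oxidative phosphorylation family, 10 of 96 ribosomal protein and 8 of 56 histone. Over all genes tested, 0.683% were called lower. Symbols are a loose guide: the first family also takes in Atp6v genes of the vacuolar proton pump and the called assembly factor Ndufaf8. The 10 ribosomal calls included Rps27rt, Rpl9-ps6 and Rpl36a-ps1, by name copies of such genes. In these families 111, 87 and 52 genes had a negative log2 fold change, with medians of -0.44, -0.47 and -0.68, against 5889 of 11857 genes over all. With library totals alone the medians were -0.25, -0.28 and -0.48. Other measures moved with genotype: the median mitochondrial share of radial glia was 3.40% and 3.65% in null and 2.87% and 3.05% in WT, and the abundant predicted gene Gm42418, named after its values were seen, was at 7582, 13094, 17995 and 18211 CPM (log2 fold change -1.02 ± 0.19). Their part in the result was not tested. Examples were the histone genes Hist1h4c, at 3.65 and 6.70 CPM in the null libraries against 14 and 13.1 CPM in the WT ones (log2 fold change -1.63 ± 0.29), and Hist2h2ab, at 9.12 and 18.1 against 32.3 and 38.3 CPM (-1.60 ± 0.25). Hist1h2bl and Hist1h3i had log2 fold changes of -1.18 and -1.12. Rps27rt, Gm2000 and Gm11808 are near copies of ribosomal protein genes, so their counts are uncertain. Their log2 fold changes were -1.23, -1.20 and -1.17. The Y-linked Eif2s3y and Ddx3y had log2 fold changes of -1.51 and -1.42 in all cells. In male cells alone these were -0.43 and -0.34, and the calls were lost (edgeR adjusted p = 0.276 and 0.388). In male cells alone 14 genes were called lower and 0 higher by edgeR, where 568 genes were higher and 823 lower at an unadjusted p under 0.05.

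The same families had negative medians in other cells of the same libraries. Their median log2 fold changes were -0.38, -0.40 and -0.92 in dividing Hes-low cells and -0.41, -0.39 and -0.54 in neurons, for oxidative phosphorylation, ribosomal protein and histone genes. In background droplets they were -0.10, -0.13 and -0.44. Of the 81 genes called lower, 77 of the 78 tested in dividing Hes-low cells had a negative log2 fold change there too. The classes come from the same libraries, and over all genes 8386 of 11331 had the same direction in both.

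Direction went with transcript length. The longest annotated transcript had a median of 903 bases in the genes called lower, 8426.5 bases in those called higher and 3473 bases over all genes tested. Genes under 1000 bases had a median log2 fold change of -0.43 and held 46 of the 81 lower calls. Genes of 8000 bases or more had a median of 0.28 and held 5 of the 8 higher calls. In dividing Hes-low cells the medians of the same bins ran from -0.38 to 0.21, in neurons from -0.40 to 0.20, and in background droplets from -0.10 to 0.18. The part of length in the difference between genotypes was not tested.

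**Figure D4:**
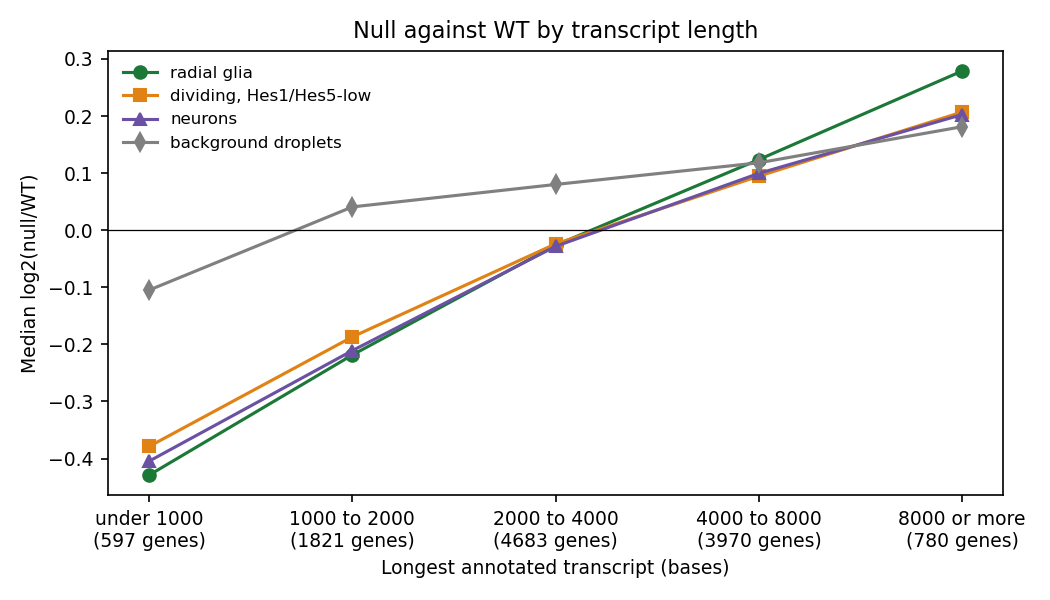
Median log2 fold change of null over WT for genes in 5 bins of longest annotated transcript, in radial glia, dividing Hes-low cells, neurons and background droplets, the last scaled by library totals. In radial glia the median runs from -0.43 under 1000 bases to 0.28 at 8000 bases or more, and the other 3 kinds of barcodes run in the same direction.

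Ebf1, a transcription factor of striatal neurons from the neighbouring lateral ganglionic eminence (chromosome 11, 44617317 to 45008091), was lower in null radial glia, at 4.07 and 7.26 CPM against 12.8 and 21.9 CPM. Its log2 fold change was -1.80 ± 0.31 (SE; edgeR adjusted p = 0.0387). This rested on very few cells: 20, 19, 19 and 15 radial glia had an Ebf1 UMI, or 3.33%, 5.88%, 4.69% and 5.45%, shares in which the genotypes overlapped. In WT the 3 richest cells held 67.9% and 53.3% of the Ebf1 UMIs, against 37.9% and 56.4% in null. Without the cells that had non-neural markers Ebf1 was at 4.10, 4.18, 12.8 and 10.5 CPM. DESeq2 gave Ebf1 no adjusted p. In neurons it was at 385, 469, 452 and 232 CPM. In cells with at least 1 Nkx2-1 UMI the log2 fold change was -0.92 and the call was lost (edgeR adjusted p = 0.354). Adm, Ctla2a and Pglyrp1 were also called lower, and are named here after their values were seen. They were at 12.8 CPM or less in every library, and in WT 77.3% to 100% of their UMIs came from 3 cells. Without the cells that had non-neural markers Adm had 0 UMIs in both WT libraries.

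Genes of radial glial structure did not pass the test. Of 19 genes tested, 0 were called by edgeR, 2 were higher and 2 lower at an unadjusted p under 0.05, and DESeq2 called 1 higher and 2 lower. The median log2 fold change was 0.08, against 0.0032 over all genes tested. At an unadjusted p under 0.05, 7.21% of all genes tested were higher and 9.63% lower, shares that stand beside every list below. In the list counts, a gene to which DESeq2 gave no adjusted p counts as not called by it. Of the 89 genes called by edgeR, 24 had no DESeq2 adjusted p. Nes, the intermediate filament nestin, was at 711 and 638 CPM in the null libraries and 473 and 384 CPM in the WT ones (log2 fold change 0.46 ± 0.16; edgeR adjusted p = 0.185). Dbi, an acyl-CoA-binding protein, was at 2167 and 2057 CPM against 2504 and 2615 CPM (-0.47 ± 0.14; edgeR adjusted p = 0.132), and Cst3, a protease inhibitor, at 358 and 309 CPM against 393 and 460 CPM (-0.54 ± 0.16). Gas1, a co-receptor for hedgehog, was at 10.1 and 17.5 CPM against 8.25 and 4.01 CPM. These 4 did not overlap between genotypes, as 44.5% of all genes tested did with null higher and 11.3% with null lower in CPM. Vim, vimentin, was at 1537 and 1175.5 against 1201 and 1200 CPM, and Sox2 at 746 and 717 against 544 and 537 CPM. Sparc overlapped between genotypes (log2 fold change -0.13 ± 0.21; edgeR adjusted p = 0.801), and Ednrb had 0.16 ± 0.13 (edgeR adjusted p = 0.555).

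In the Notch pathway, 0 of 25 genes tested were called by edgeR, 2 were higher and 2 lower at an unadjusted p under 0.05, and DESeq2 called only Notch1. Notch1, at the levels given above, had a log2 fold change of 0.46 ± 0.14 (edgeR adjusted p = 0.128, DESeq2 adjusted p = 0.0218). Maml2, a coactivator of the Notch complex, was at 18.8 and 22.3 CPM in the null libraries and 11.5 and 12.4 CPM in the WT ones. Id1 and Id2, inhibitors of proneural factors that also respond to BMP signals, had the opposite sign. Id1 was at 41.7 and 38.9 CPM against 53.0 and 58.4 CPM (-0.65 ± 0.15; edgeR adjusted p = 0.0652), and Id2 at 39.3 and 39.1 CPM against 47.2 and 44.1 CPM. The target genes Nrarp (-0.02 ± 0.13), Lfng (0.18 ± 0.16), Hey1 (0.08 ± 0.20) and Hes6 (-0.09 ± 0.15) were not called, and the log2 median of the list was 0.10.

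Cell cycle genes were given by phase. Of 20 S phase genes, 0 were called by edgeR or DESeq2, 0 were higher and 1 lower at an unadjusted p under 0.05, and the median was -0.06. The lower gene was Dut, which removes dUTP, at 542 and 468 CPM against 627 and 577 CPM. Of 20 G2/M genes, 0 were called by edgeR, 2 were higher and 2 lower at an unadjusted p under 0.05, and the median was -0.07. Mki67 was at 783 and 838 CPM in the null libraries and 512 and 417 CPM in the WT ones, with a log2 fold change of 0.61 ± 0.15 (edgeR adjusted p = 0.0864), and DESeq2 called it (adjusted p = 0.00193). Without the radial glia that had non-neural markers, a setting chosen after seeing the data, edgeR called Mki67 higher too. Cenpe, a kinetochore motor, was at 314 and 301 CPM against 195 and 178 CPM (0.53 ± 0.14; edgeR adjusted p = 0.0950, DESeq2 adjusted p = 0.0160). Top2a, at 1089 and 1307 CPM against 1060 and 943 CPM, had 0.06 ± 0.15. Birc5 (-0.36 ± 0.16) and Hmgb2 (-0.40 ± 0.15) had the opposite sign. Of 9 G1 cyclins and inhibitors, 0 were called by either tool and 0 had an unadjusted p under 0.05. Ccnd1 was at 413 and 354 against 318 and 292 CPM, and Ccnd2 at 782 and 1025 against 656 and 666 CPM.

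Regional identity was read from fixed lists. Of 15 MGE patterning and hedgehog genes tested, 0 were called by edgeR or DESeq2, and 1 was higher and 0 lower at an unadjusted p under 0.05. This was Gli3, a hedgehog-dependent transcription factor, at 75.5 and 92.2 CPM against 62.6 and 47.8 CPM (0.39 ± 0.16; edgeR adjusted p = 0.241). The list had 13 positive log2 fold changes and a median of 0.18, which was 0.38 with library totals alone. Over all genes tested, 5968 of 11857 were positive, and the medians were 0.0032 and 0.20. In dividing Hes-low cells and neurons the median of the list was 0.13 and 0.15. Nkx2-1 had a log2 fold change of -0.08 ± 0.14, and Olig2 was at 191 and 188 against 160 and 172 CPM. Lhx2 (0.16 ± 0.13) was not called. Shh was too low to be tested, at 0.559 to 1.26 CPM. Of 9 genes of the lateral ganglionic eminence only Ebf1 was called, and the homeobox gene Meis1 was at 23.9 and 27.7 CPM against 15.1 and 16.4 CPM. Of 3 genes of the caudal ganglionic eminence, 0 were called by edgeR or DESeq2 and 2 were higher at an unadjusted p under 0.05. Over all genes tested, 7.21% were higher at that p. Nr2f1 was at 308 and 282 against 226 and 184 CPM, and Nr2f2 at 88.3 and 87.0 against 57.6 and 55.8 CPM. In radial glia, dividing Hes-low cells and neurons the log2 fold change of Nr2f1 was 0.33, 0.36 and 0.29. That of Nr2f2 was 0.43, 0.77 and 0.64. Of the pallial list only Emx2 was tested (0.29 ± 0.23).

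Genes of the next stages came next. Of 12 basal progenitor genes, 0 were called by edgeR or DESeq2 and 1 was higher at an unadjusted p under 0.05. This was Dlx1, at 236 and 294 CPM against 186 and 164 CPM (0.40 ± 0.14; edgeR adjusted p = 0.185). Of 12 neuronal genes, 0 were called by edgeR or DESeq2, 2 were higher and 1 lower at an unadjusted p under 0.05. Lhx6 was at 26.8 and 40.4 CPM against 18.1 and 15.3 CPM (0.78 ± 0.21; edgeR adjusted p = 0.101), and Dlx6os1 at 55.3 and 95.7 against 40.6 and 37.2 CPM. The 10 gliogenic genes tested had 0 calls by edgeR or DESeq2 and 1 gene with an unadjusted p under 0.05, the growth factor receptor Fgfr3, at 51.4 and 54.9 against 34.9 and 35.7 CPM. Of 4 stress genes tested, 0 were called by either tool and 1 was lower at an unadjusted p under 0.05, Ier2. Of the 3 Myt family genes, 0 were called by either tool and 0 had an unadjusted p under 0.05, with St18 at 0.82 ± 0.54.

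A change in radial glia is particular to them only if it differs from the change in other cells. That difference was tested only against dividing Hes-low cells of the same libraries. Those cells were chosen in part by Mki67 and Top2a UMIs. Their median depth was 8360.5, 10251, 8402 and 7849 UMIs, and after thinning the G2/M list summed to a median of 28, 20, 29 and 30 UMIs. The part of this choice in the differences below was not tested. Of 12514 genes, 11 (0.0879%) passed an edgeR adjusted p of 0.05, and 1023 (8.17%) had an unadjusted p under 0.05. Ebf1 was the only called gene with a negative difference: it was at 7.88, 8.90, 4.82 and 6.07 CPM in dividing Hes-low cells, so that the log2 difference was -2.23 ± 0.34 (edgeR adjusted p = 0.000844). The other 10 had a larger or less negative log2 fold change in radial glia. Pcm1, a centriolar satellite protein, was at 288 and 339 CPM in null radial glia against 201 and 193 CPM in WT, and at 270, 319, 266 and 251 CPM in dividing Hes-low cells (log2 difference 0.49 ± 0.08). Cenpe had a log2 difference of 0.49 ± 0.09, Dlx6os1 0.54 ± 0.09 and the zinc finger gene Zfp462 0.40 ± 0.08. Atad2, a chromatin-bound ATPase of S phase, had 0.48 ± 0.08. Cenpe had a log2 fold change of 0.53 in radial glia, 0.35 in neurons and 0.48 in background droplets, the last scaled by library totals. For Dlx6os1 these were 0.74, 0.09 and 0.29. Atad2 had a log2 fold change of 0.16 in radial glia and -0.27 in dividing Hes-low cells. Pclaf and the 4 histone genes Hist1h1b, Hist1h1e, Hist1h4d and Hist1h2ap had negative log2 fold changes in both classes, nearer to 0 in radial glia. DESeq2 called 1 gene in this comparison, and without the cells with non-neural markers edgeR called 37.

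**Figure D5:**
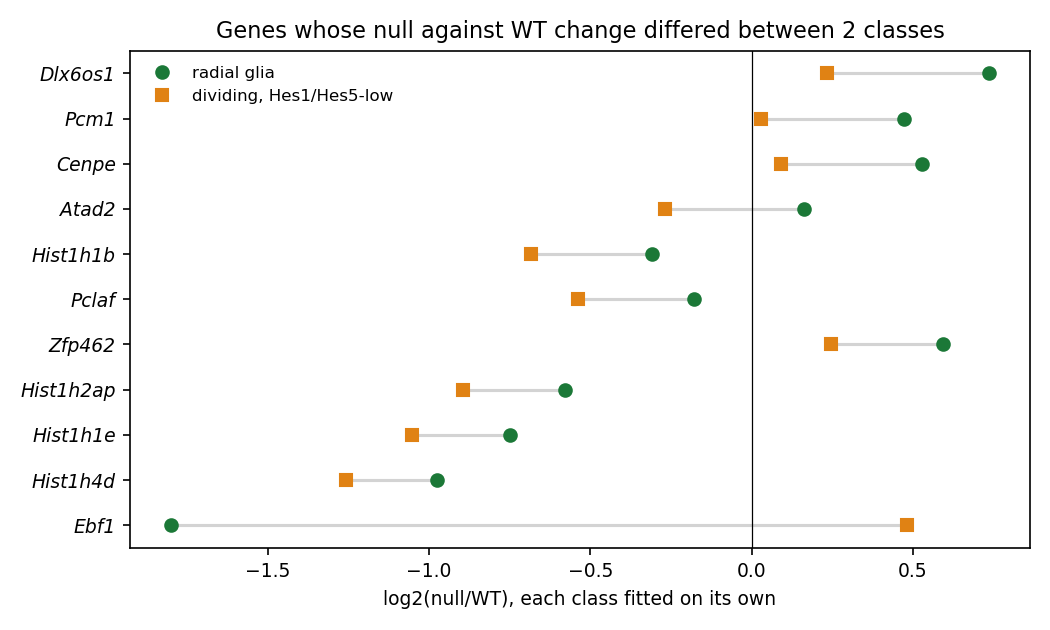
Log2 fold change of null over WT in radial glia (circles) and in dividing Hes-low cells (squares), each class fitted on its own, for the 11 genes whose change differed between the classes. Ebf1 lies at -1.80 in radial glia and 0.48 in dividing Hes-low cells, and in the other 10 genes the circle lies to the right of the square.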

How the data were processed

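Droplet libraries (10x) of pooled e14.5 MGE were sequenced by the authors, aligned to GRCm38 and counted with Cell Ranger (5.0.1 per the submitters' processing notes, 4 per the file headers). The deposited counts are raw UMIs for 32285 genes in all barcodes, with 70991150 to 92984713 UMIs per library. The study calls the libraries of a genotype biological replicates, and p-values measure the spread between them only. Replicates are numbered in accession order. Gene positions came from GENCODE M21, in which 99.6% of identifiers were found.

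Counts were summed per library over the chosen cells and tested with edgeR 4.0.16 (quasi-likelihood, trimmed mean of M-values, filterByExpr, robust, Benjamini-Hochberg, adjusted p under 0.05) in R 4.3.3. The difference between classes was tested with the library as a block. DESeq2 1.42.0 was an alternative. Shares were compared by an exact permutation test over libraries. Scripts ran in Python 3.11.15 with pandas 2.3.3, scipy 1.17.1, matplotlib 3.10.9 and numpy 2.4.6, and were tested on simulated data. No doublets were removed in the values reported. Scrublet (scanpy 1.11.5) called 0, 1, 3 and 1 barcodes by its own threshold, so as an alternative the highest-scoring barcodes were left out, 0.8% per 1000 eligible barcodes. Leaving out cells with non-neural markers was chosen after seeing the data.

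Named genes were those of the rule and its markers, per direction up to 10 called genes with the largest fold change, no overlap between genotypes and a mean of 10 CPM or more on the higher side, and of each list the 4 with the highest level and those at an unadjusted p under 0.05. In contrasts of cells, named genes had the largest ratios. The lists covered radial glial structure, Notch, cell cycle, lineage, region, gliogenesis, stress and the Myt family. Members and lists were chosen with earlier results of these data known. The oxidative phosphorylation, ribosomal protein and histone families were not among these lists and were formed by symbol after the calls were seen.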

Additional observations from a re-analysis of the deposited data

Results flagged for a closer look

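Each gene here is one whose log2 fold change of null over WT differed between radial glia and dividing Hes-low cells, by edgeR's test of the difference with the library as a block and n = 2 libraries per genotype. The differences below are radial glia minus dividing Hes-low cells. The latter were chosen in part by Mki67 and Top2a, and the part of that choice was not tested. Dlx6os1 differed by 0.54 (edgeR adjusted p = 0.00262), Pcm1 by 0.49 (0.00151), Cenpe by 0.49 (0.00332), Atad2 by 0.48 (0.00285) and Zfp462 by 0.40 (0.0231). Hist1h1b differed by 0.42 (0.000355), Pclaf by 0.41 (0.0146), Hist1h2ap by 0.36 (0.0362), Hist1h1e by 0.35 (0.00151) and Hist1h4d by 0.33 (0.0253). Ebf1 differed by -2.23 (0.000844). Without the cells that had non-neural markers, all 11 were again called, with Ebf1 at -2.29 and Pcm1 at 0.47. Ebf1 had a UMI in 20, 19, 19 and 15 radial glia of the 4 libraries.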

How the results depend on the processing

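The counts of 8 genes higher and 81 lower in null radial glia moved with most settings, though the called genes that could be tested kept their direction in each. Library totals alone gave 374 higher, no filter on low counts 165 and 376 (higher and lower), and DESeq2 31 and 234. A minimum of 5000 UMIs gave 3 and 28, Hes1 and Hes5 at 6 or more 1 and 18, Stmn2 and Gap43 at 0 30 and 126, male cells 0 and 14, cells with an Nkx2-1 UMI 15 and 123, and leaving out cells with non-neural markers, chosen after seeing the data, 32 and 192. Leaving out 1 library, where the lone one left in its genotype is assumed to vary like the others, gave 4 to 653 higher and 35 to 1625 lower genes. The lowest counts came without WT replicate 2 and the highest without null replicate 1, with 217 and 651 without null replicate 2 and 23 and 166 without WT replicate 1. The 11 genes that differed between classes became 1 with DESeq2, 37 without cells with non-neural markers, and 5 to 98 with 1 library left out, lowest without WT replicate 2 and highest without null replicate 1. The cause was not tested. The difference in the share of radial glia ranged from -0.280 without WT replicate 2 to 1.84 without WT replicate 1, and was -0.495 with barcodes thinned before the rule, where the difference in the Nkx2-1 share was -2.61. Sparc, at -0.13, turned to 0.059 with library totals, 0.16 after thinning before the rule, 0.17 in cells with an Nkx2-1 UMI and 0.16 without cells with non-neural markers, and ranged from -0.42 to 0.16 with 1 library left out. Nkx2-1, at -0.08, turned to 0.12 with library totals and ranged from -0.18 to 0.012 with 1 library left out. No paired analysis was possible because the labels carry no replicate numbers. With 2 libraries per genotype a share cannot reach an exact p below 0.333, and genes at a few UMIs rest on few cells.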
